A study of Mus musculus with 6 samples.

Results

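The genes that release calcium from the endoplasmic or sarcoplasmic reticulum and pump it back were followed in brown adipose tissue (BAT) of mice on 2 diets. They were the ryanodine receptors *Ryr1*, *Ryr2* and *Ryr3*, the SERCA pumps *Atp2a1*, *Atp2a2* and *Atp2a3*, the inositol trisphosphate (IP3) receptors *Itpr1*, *Itpr2* and *Itpr3*, and *Sln*, which encodes sarcolipin. They were picked by gene symbol, 10 of the 47729 genes in the expression tables, with their diet differences in these mice already known. The diet differences of these genes are therefore given as a description, without a p-value.

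Ryanodine receptors and IP3 receptors are calcium channels in the membrane of the store. The first open to calcium or, in skeletal muscle, through contact with the voltage sensor of the surface membrane, and the second open to IP3 made by phospholipase C. SERCA pumps spend ATP to return calcium to the store, and sarcolipin is a small membrane peptide that binds SERCA and lowers the calcium moved per ATP, which releases heat. RYR1 and SERCA1, the product of *Atp2a1*, are the forms of skeletal muscle fibres, RYR2 is the form of the heart and of many neurons, and SERCA2 and the IP3 receptors are found in most cells. Calcium cycling through the store has been described as a source of heat in brown and beige fat.

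All mice were male, wild type and C57BL/6J, single-housed, and fed from 6 to 10 weeks of age. The LFD group received the standard rodent diet, a low-fat diet, and the HFD group the 45% high-fat diet. Total RNA of the right interscapular BAT, depleted of ribosomal RNA, was sequenced from 3 mice of each diet, which had been picked to span the fat mass of their group. Interscapular BAT is a dissected depot that borders on muscle, and its RNA comes from all the cells in the piece. In such bulk RNA, fewer cells of a type and less RNA per cell cannot be told apart.

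Each mouse had 17156991 to 21603487 counts after rounding. Mitochondrially encoded genes took 8.497% to 22.7% of the counts in HFD mice and 3.87% to 13.8% in LFD mice. *Ucp1*, the uncoupling protein that defines brown adipocytes, was present in all 6 mice, at 443, 11.0 and 76.0 TPM (a level per transcript length, scaled to a fixed total in each mouse) in LFD mice 1, 2 and 3 and at 2728, 4021 and 796 TPM in HFD mice 1, 2 and 3. The summed level of 20 skeletal muscle fibre markers was 2345 to 16078 TPM in LFD mice and 35.0 to 413 TPM in HFD mice, and none of the 20 was at 0 in all mice. LFD mouse 2 held both the lowest *Ucp1* level and the highest level of muscle markers. Genes called by diet in the fit over all genes numbered 0 with edgeR, against 1169 lower and 682 higher in HFD at an unadjusted p under 0.05, and 306 lower and 106 higher with DESeq2 (adjusted p under 0.01 and absolute log2 fold change above 1.5 in both).

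The coding sequence of *Sln* is shown first because the gene is the smallest of the set and its whole product is spelled by 1 short exon piece. It lies on chr9:53853473-53853568 of GRCm38, plus strand, within the gene at chr9:53850164-53854560, and its 96 bases hold 31 codons before the stop. Capitals mark the start and the stop codon.
Sln coding sequence: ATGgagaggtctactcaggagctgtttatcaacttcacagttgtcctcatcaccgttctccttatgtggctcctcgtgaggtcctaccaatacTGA

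The upstream sequences of *Ryr1*, *Ryr2* and *Atp2a1* are shown because their diet differences were large and went in opposite directions. Each is the stretch from 51 to 250 bases before the RefSeq start of the gene (GRCm38.p6), 5′ to 3′ on the strand of the gene. RefSeq promoter sequences were matched for 6 of the 10 genes. Capitals mark matches on either strand to CANNTG, the E-box bound by basic helix-loop-helix factors, and to GGGCGG, the GC box.
Ryr1, chr7:29125202-29125401, minus strand: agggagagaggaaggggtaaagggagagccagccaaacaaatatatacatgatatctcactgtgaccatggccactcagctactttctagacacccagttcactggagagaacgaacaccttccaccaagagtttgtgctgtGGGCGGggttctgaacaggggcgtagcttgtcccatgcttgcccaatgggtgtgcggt
Ryr2, chr13:12106996-12107195, minus strand: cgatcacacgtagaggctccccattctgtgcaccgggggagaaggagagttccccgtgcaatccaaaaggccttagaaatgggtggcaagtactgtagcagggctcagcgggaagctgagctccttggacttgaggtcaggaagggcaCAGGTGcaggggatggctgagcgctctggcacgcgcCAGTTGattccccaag
Atp2a1, chr7:126463124-126463323, minus strand: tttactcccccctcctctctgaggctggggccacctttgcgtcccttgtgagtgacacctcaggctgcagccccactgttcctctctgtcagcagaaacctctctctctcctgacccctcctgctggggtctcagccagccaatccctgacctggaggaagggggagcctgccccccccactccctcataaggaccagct
The *Ryr2* stretch held 2 matches to CANNTG, and those of *Ryr1* and *Atp2a1* held 0. *Ryr1* held 1 match to GGGCGG, and the other two held 0. Matches to the different motifs did not overlap. Of 32851 windows of the same 200 bases before genes, 59.0% held CANNTG and 24.6% held GGGCGG, so neither match sets these windows apart from others. The motif TATAAA was in 9.14% of all windows and in 0 of these. The GC content was 52.5% for *Ryr1*, 59.5% for *Ryr2* and 62.5% for *Atp2a1*, beside a median of 51.5% over all windows.

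Among the ryanodine receptors, *Ryr1* was lower and *Ryr2* was higher in every HFD mouse than in every LFD mouse, and *Ryr3* was near 0 in both diets. *Ryr1* (ENSMUSG00000030592, chr7:29003344-29125179, minus strand, GRCm38), the release channel of the muscle triad, stood at 24.1, 56.2 and 6.54 TPM in LFD mice 1, 2 and 3. In HFD mice 1, 2 and 3 it stood at 0.24, 0.87 and 0.10 TPM. The lowest LFD mouse, mouse 3, was still well above the highest HFD mouse, mouse 2. The mean was 28.9 ± 25.2 TPM (SD, n = 3) in LFD mice and 0.403 ± 0.410 TPM (SD, n = 3) in HFD mice, and the log2 fold change of HFD over LFD in the edgeR fit was -5.94 with a standard error (SE) of 1.13. The levels rest on 1034 to 9591 reads in LFD mice and on 27 to 187 reads in HFD mice. Exons of *Ryr1* overlap those of *Gm26604*, an antisense gene that holds 2.01% of the 75-base words of *Ryr1*, and it is not stated whether the counting used strand.

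*Ryr2* (ENSMUSG00000021313, chr13:11553102-12106945, minus strand), the release channel of heart muscle and neurons, went the other way. Its level was 0.04, 0.04 and 0.03 TPM in LFD mice 1, 2 and 3, from 11, 10 and 6 reads. In HFD mice 1, 2 and 3 it was 1.13, 1.09 and 0.62 TPM, from 413, 292 and 179 reads. All LFD mice were thus close to 0 and close to each other, and the HFD mice did not overlap with them. The log2 fold change was 4.94 (SE 0.59), and, pooled over the mice of a diet and per total count, its reads were 31.2 times as many in HFD as in LFD mice, with a 95% exact counting interval of 21.3 to 47.5. Such intervals cover counting error only. *Ryr2* shares 0.0241% of its 75-base words with another gene.

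Values of markers of the cell types in which RYR2 is best known are given beside it. The cardiac genes *Myh6*, the alpha myosin heavy chain, and *Myl7*, the atrial light chain, were at 0 TPM in 4 and 5 of the 6 mice and never above 0.07 and 0.14 TPM. The summed level of 8 cardiac markers was 2.33 to 3.39 TPM in HFD mice and 6.21 to 64.1 TPM in LFD mice, 2 of the 8 passed the filter, and the sum in LFD mice was mostly *Myl4*, at 5.71, 47.8 and 5.49 TPM, with *Tnnt2* at 12.5 TPM in LFD mouse 2. *Mybpc3* had 0.01, 0.09 and 0.08 TPM in LFD and 0.04, 0.15 and 0.24 TPM in HFD mice. The 9 neuron markers summed to 2.71 to 7.35 TPM in HFD mice and 1.84 to 29.7 TPM in LFD mice, which overlap, and the synaptic gene *Snap25* stayed at or under 0.09 TPM. Brown adipocyte markers did tend to be higher in HFD mice: 10 of the 12 had a log2 fold change above 0, with a median of 1.79. Of the 12, *Ucp1*, *Ppara* and *Prdm16* were higher in every HFD mouse, beside 6.72% of all tested genes. The summed level of the 12 markers overlapped, at 2502 to 8490 TPM in HFD and 945 to 4914 TPM in LFD mice. Between mice of the same number it was higher in HFD in 3 of 3 pairs (7084 against 4914, 8490 against 3375 and 2502 against 945 TPM), as were 10 of the 12 markers. The labels do not say what the number stands for, and the cardiac and neuron sums were not compared by number. Across numbers, LFD mouse 1 (4914 TPM) lay above HFD mouse 3 (2502 TPM), with *Ryr2* at 0.04 and 0.62 TPM. The part of cardiac, neuron and brown adipocyte RNA in the *Ryr2* difference was not tested.

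*Ryr3* (ENSMUSG00000057378, chr2:112631355-113217096, minus strand), the third channel of the family, had 0, 24 and 4 reads in LFD mice and 3, 8 and 0 reads in HFD mice. Its level was at most 0.37 TPM, and the diets overlapped. It was the only one of the 10 genes that did not pass the filter on low counts. Pooled over the mice of a diet and per total count, its reads were 2.68 times as many in LFD as in HFD mice (95% exact counting interval 1.29 to 5.95), and 24 of the 28 LFD reads came from mouse 2. Mean TPM went the other way, at 0.127 in HFD and 0.0733 in LFD mice, with the highest level in HFD mouse 2 from 8 reads, so no direction is read. Its exons overlap those of *Aven*, which holds 4.10% of its 75-base words.

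**Figure D1:**
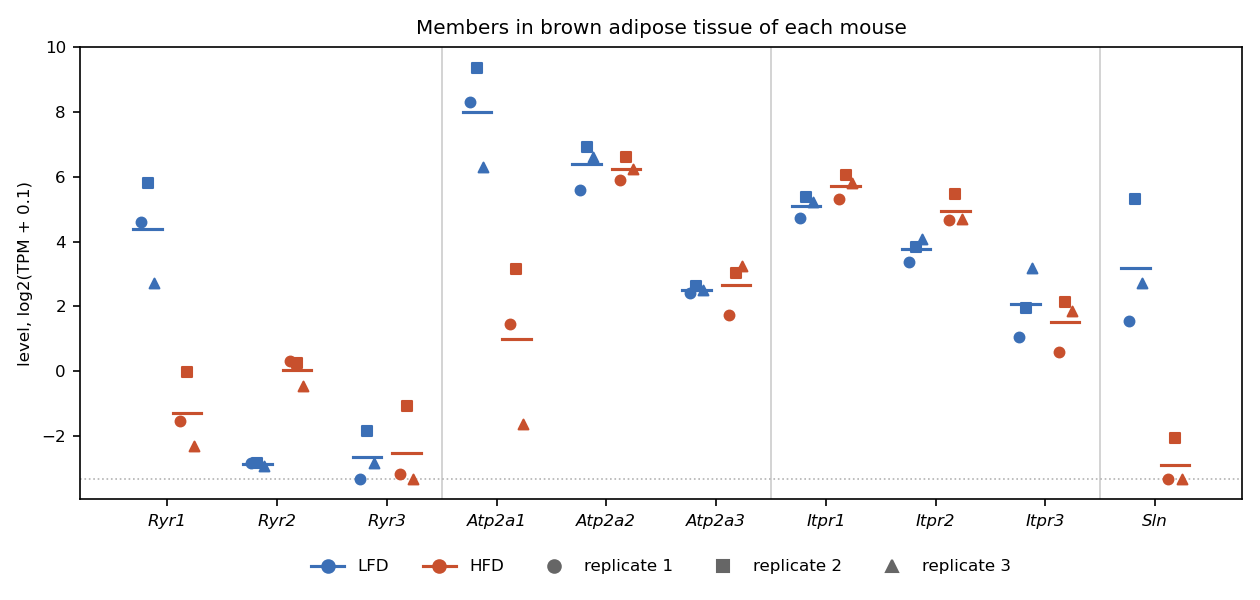
Levels of the 10 genes in BAT of each mouse as log2(TPM + 0.1), with LFD in blue, HFD in red, a symbol for each replicate number and a line at the mean of each diet. The dotted line marks 0 TPM. *Ryr1*, *Atp2a1* and *Sln* lie lower and *Ryr2* and *Itpr2* higher in all 3 HFD mice, while *Atp2a2* stays between 48.6 and 122 TPM in all 6.

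Of the SERCA pumps, *Atp2a1* was lower in every HFD mouse, while *Atp2a2* and *Atp2a3* overlapped between the diets. *Atp2a1* (ENSMUSG00000030730, chr7:126445858-126463108, minus strand), the pump of fast-twitch muscle fibres, had 316, 665 and 79.7 TPM in LFD mice 1, 2 and 3. It had 2.63, 8.84 and 0.22 TPM in HFD mice 1, 2 and 3. The order of the mice within each diet was that of *Ryr1*: mouse 2 highest and mouse 3 lowest. Mean levels were 354 ± 294 TPM (SD, n = 3) in LFD mice and 3.90 ± 4.45 TPM (SD, n = 3) in HFD mice, with a log2 fold change of -6.29 (SE 1.51), and the value for HFD mouse 3 rests on 13 reads. The gene *Rabep2* on the opposite strand holds 15.8% of the 75-base words of *Atp2a1*, more than any gene shares with the other members, and how many of the few HFD reads come from that strand was not tested.

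*Atp2a2* (ENSMUSG00000029467, chr5:122453513-122502225, minus strand), the pump of most cell types and of heart and slow muscle, had 48.6, 122 and 97.7 TPM in LFD mice 1, 2 and 3. In HFD mice 1, 2 and 3 it had 59.95, 97.7 and 75.6 TPM. The diets overlapped throughout, and the log2 fold change was 0.10 (SE 0.28). *Atp2a3* (ENSMUSG00000020788, chr11:72961169-72993044, plus strand), the pump of blood and endothelial cells, had 5.17, 6.05 and 5.60 TPM in LFD and 3.21, 8.10 and 9.35 TPM in HFD mice. Both the lowest and the highest *Atp2a3* level were in HFD mice, and the log2 fold change was 0.34 (SE 0.31). The 8 endothelial markers had a similar order within the HFD mice, mouse 1 being the lowest, with sums of 157 to 696 TPM in HFD and 178 to 394 TPM in LFD mice. Summed macrophage, platelet, and T and NK cell markers were also lowest in HFD mouse 1. Within the LFD mice the endothelial sum was highest in mouse 3 and *Atp2a3* in mouse 2. The part of these cell types in the *Atp2a3* levels was not tested.

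*Sln* (ENSMUSG00000042045), whose coding sequence is given above, was seen in all LFD mice and nearly absent from HFD mice. It had 22, 242 and 34 reads, or 2.81, 39.4 and 6.45 TPM, in LFD mice 1, 2 and 3. In the HFD mice a single read was counted, in mouse 2, at 0.14 TPM, and the other two mice had 0. Pooled and per total count in the same way, its reads were 313 times as many in LFD as in HFD mice, with a 95% exact counting interval of 55.8 to 12411, and 242 of the 298 LFD reads came from mouse 2. The fitted log2 fold change of -7.76 (SE 1.44) depends on the prior count of the edgeR fit, which stands in for the missing reads. The annotation used for the counts gives *Sln* a transcript of 515 bases, against 1318 bases in a later annotation of the same genome, GENCODE M21, so reads on the rest of the longer form were not counted.

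**Figure D2:**
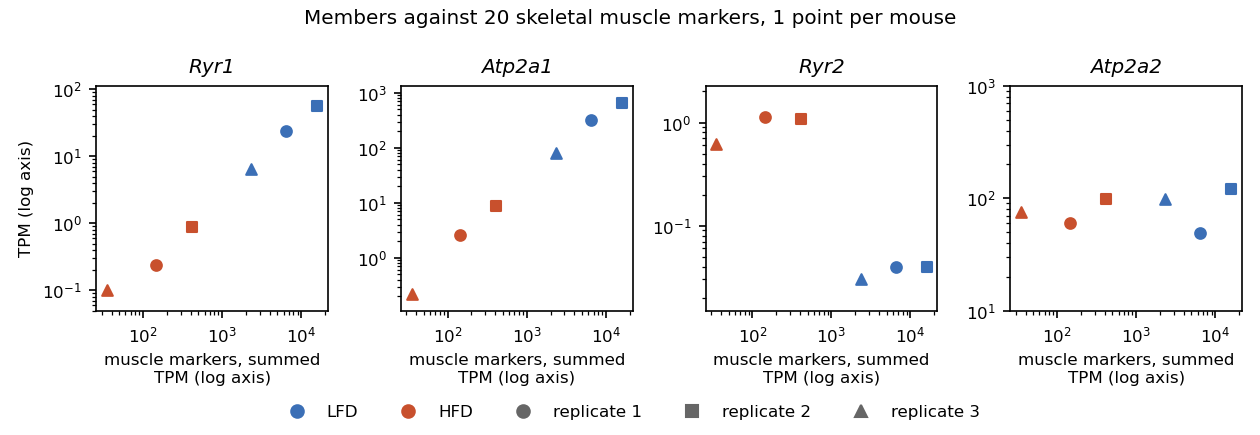
TPM of *Ryr1*, *Atp2a1*, *Ryr2* and *Atp2a2* against the summed TPM of 20 skeletal muscle fibre markers, 1 point per mouse and log scales on both axes (LFD blue, HFD red). *Ryr1* and *Atp2a1* are ordered like the muscle markers over the 6 mice, from HFD mouse 3 at 35.0 TPM of markers to LFD mouse 2 at 16078 TPM, while *Atp2a2* stays within 48.6 to 122 TPM.

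*Ryr1* and *Atp2a1* were ordered like the summed skeletal muscle fibre markers over all mice, but *Sln* was not. Its lowest LFD level was in mouse 1, and the lowest marker sum of the LFD mice was in mouse 3. All 19 of the 20 markers that passed the filter had a log2 fold change below 0, with a median of -6.15. Of these, 17 were lower in every HFD mouse, beside 9.23% of all tested genes. For *Ryr1*, the level as a percent of the summed muscle markers was 0.371%, 0.3496% and 0.279% in LFD mice 1, 2 and 3 and 0.166%, 0.210% and 0.286% in HFD mice 1, 2 and 3. On this measure *Ryr1* overlapped between the diets. *Atp2a1* came to 4.86%, 4.14% and 3.397% of the markers in LFD mice and to 1.82%, 2.14% and 0.628% in HFD mice, which did not overlap. *Sln* came to 0.0432%, 0.245% and 0.275% in LFD mice and to 0.0339% in HFD mouse 2, with 0 in the other HFD mice. Myoglobin (*Mb*), which is on the marker list, overlapped between the diets, at 50.2, 152 and 6.20 TPM in HFD and 95.03, 326 and 63.9 TPM in LFD mice. *Mb* and the myosin light chain *Myl1* made up 46.9% to 62.7% of the marker sum in HFD mice and 8.004% to 9.41% in LFD mice, so the sum was also taken without them, a choice made after seeing the data. *Atp2a1* then came to 5.29%, 4.57% and 3.75% in LFD mice and 4.87%, 4.03% and 1.20% in HFD mice, which overlap. *Ryr1* came to 0.308% to 0.403% in LFD mice and 0.396% to 0.547% in HFD mice, which also overlap. *Sln* came to 0.0470% to 0.303% in LFD and to 0 to 0.0638% in HFD mice, an overlap that rests on the single read of HFD mouse 2. On the full marker sum *Sln* did not overlap. The part of muscle fibre RNA in the 3 diet differences was not tested beyond these ratios.

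Of the IP3 receptors, *Itpr1* and *Itpr2* were higher in HFD mice, by smaller steps than *Ryr2*, and *Itpr3* overlapped. *Itpr2* (ENSMUSG00000030287, chr6:146108299-146502223, minus strand), a channel of high affinity for IP3, had 10.3, 14.1 and 16.9 TPM in LFD mice 1, 2 and 3. It had 25.2, 44.6 and 25.8 TPM in HFD mice 1, 2 and 3. Each HFD mouse lay above each LFD mouse, and the mean was 31.9 ± 11.0 TPM (SD, n = 3) against 13.8 ± 3.33 TPM (SD, n = 3), with a log2 fold change of 1.52 (SE 0.30). This value is just above the fold threshold of 1.5 on the log2 scale. *Itpr2* shares no 75-base word with another gene.

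*Itpr1* (ENSMUSG00000030102, chr6:108213096-108551109, plus strand), the main IP3 receptor of neurons and smooth muscle, had 26.4, 41.4 and 37.1 TPM in LFD mice 1, 2 and 3. It had 39.4, 65.9 and 55.8 TPM in HFD mice 1, 2 and 3. In TPM the lowest HFD mouse, mouse 1, lay under LFD mouse 2, so the diets overlapped. In CPM (counts per total count of the mouse, scaled, and not divided by length) the HFD mice had 178, 226 and 212 and the LFD mice 88.8, 110 and 107, with no overlap. The log2 fold change from the counts was 0.97 (SE 0.24), and the mean difference in log2(TPM + 0.1) was 0.61. *Itpr3* (ENSMUSG00000042644, chr17:27057304-27122223, plus strand), the form known from secretory epithelia, had 1.98, 3.76 and 8.98 TPM in LFD and 1.41, 4.28 and 3.50 TPM in HFD mice. Its log2 fold change of -0.39 (SE 0.40) rests on LFD mouse 3, without which it was 0.10. T and NK cell markers were also higher in HFD mice, 9 of the 11 that passed the filter in every mouse, beside 6.72% of all tested genes. Their summed levels were 15.4 to 48.2 TPM in HFD and 1.99 to 14.7 TPM in LFD mice. Among HFD mice this sum was highest in mouse 3, while *Itpr1* and *Itpr2* were highest in mouse 2, as was the sum of the brown adipocyte markers (8490 TPM). Among LFD mice the brown adipocyte sum was highest in mouse 1 (4914 TPM) and lowest in mouse 3 (945 TPM). *Itpr1* was highest in LFD mouse 2 and *Itpr2* in LFD mouse 3. The part of either cell type in the IP3 receptor levels was not tested.

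Over the 10 genes, 9 passed the filter on low counts. *Ryr2* and *Sln* passed only through the diet in which they were high, since at least 3 mice had to reach 0.507 CPM, which 2 LFD mice did for *Ryr2* and 0 HFD mice did for *Sln*. In log2 CPM, *Ryr1*, *Atp2a1* and *Sln* were lower in every HFD mouse, beside 9.23% of all tested genes. *Ryr2*, *Itpr1* and *Itpr2* were higher in every HFD mouse, beside 6.72% of all tested genes. The edgeR fit called 0 of the 9, beside 0.0% of all tested genes in each direction. DESeq2 called *Ryr1*, *Atp2a1* and *Sln* lower, beside 1.03% of the genes it tested, and *Ryr2* and *Itpr2* higher, beside 0.356%. The median log2 fold change was 0.10 over the 9 genes and -0.05 over all 17668 tested genes. Since the genes were picked with this contrast known, nothing is read from these counts.

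**Figure D3:**
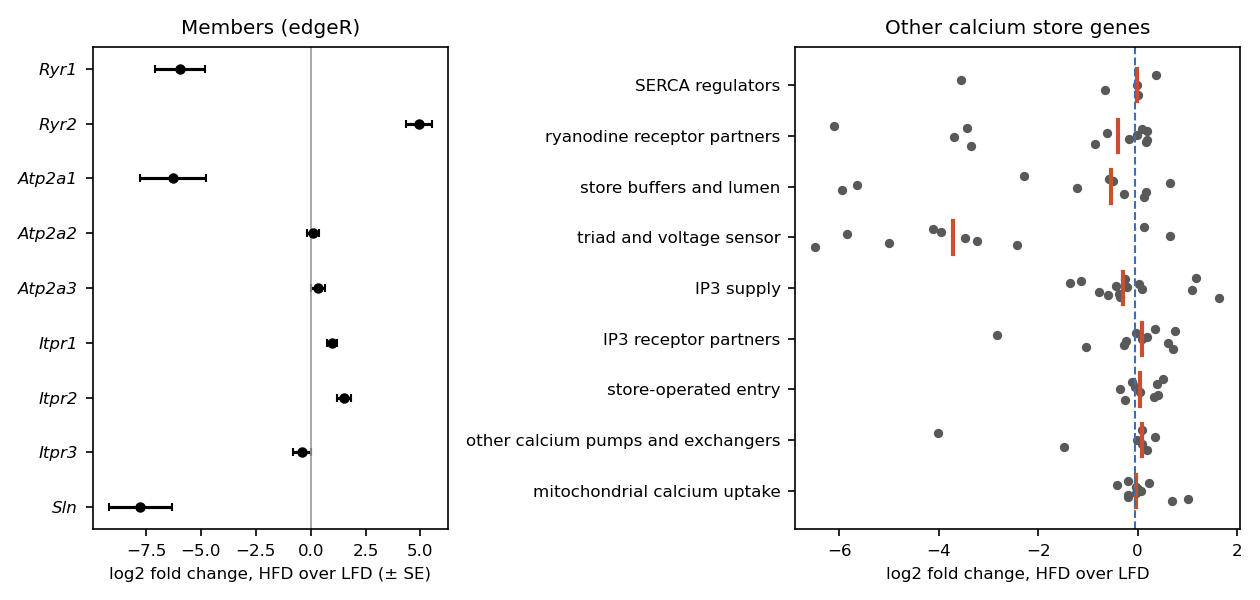
Left, log2 fold change of HFD over LFD with its standard error for the 9 genes that passed the filter, from -7.76 for *Sln* to 4.94 for *Ryr2*. Right, log2 fold changes of 89 other calcium store genes in 9 lists, 1 point per gene, with a red line at the median of each list and a dashed blue line at the median of all tested genes, -0.05. The triad and voltage sensor list lies farthest to the left, with a median of -3.72.

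The isoform makeup of each family was then compared mouse by mouse, as the percent of the summed TPM of its 3 genes. *Ryr1* made up 98.9% to 99.8% of ryanodine receptor TPM in LFD mice and 13.9% to 37.3% in HFD mice. *Ryr2* made up 0.0709% to 0.454% in LFD and 46.8% to 86.1% in HFD mice. The leading ryanodine receptor was thus *Ryr1* in all 3 LFD mice and *Ryr2* in all 3 HFD mice. The family as a whole stood at 6.61 to 56.4 TPM in LFD mice and at 0.72 to 2.33 TPM in HFD mice, so the *Ryr2* share in HFD mice is a share of a low total.

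*Atp2a2* made up 85.2% to 91.1% of SERCA TPM in HFD mice and 13.1% to 53.4% in LFD mice. *Atp2a1* led in LFD mice 1 and 2, at 85.5% and 83.9%, while in LFD mouse 3 it made up 43.5%, below *Atp2a2*. The SERCA total was 183 to 793 TPM in LFD and 65.8 to 115 TPM in HFD mice. IP3 receptor makeup differed less: *Itpr1* made up 58.9% to 69.8% in LFD and 57.4% to 65.6% in HFD mice, which overlap. The share of *Itpr2* was 23.8% to 26.9% in LFD and 30.3% to 38.8% in HFD mice, and that of *Itpr3* 5.12% to 14.2% and 2.13% to 4.12%, with no overlap for either. The IP3 receptor total was 38.7 to 63.0 TPM in LFD and 66.1 to 115 TPM in HFD mice.

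**Figure D4:**
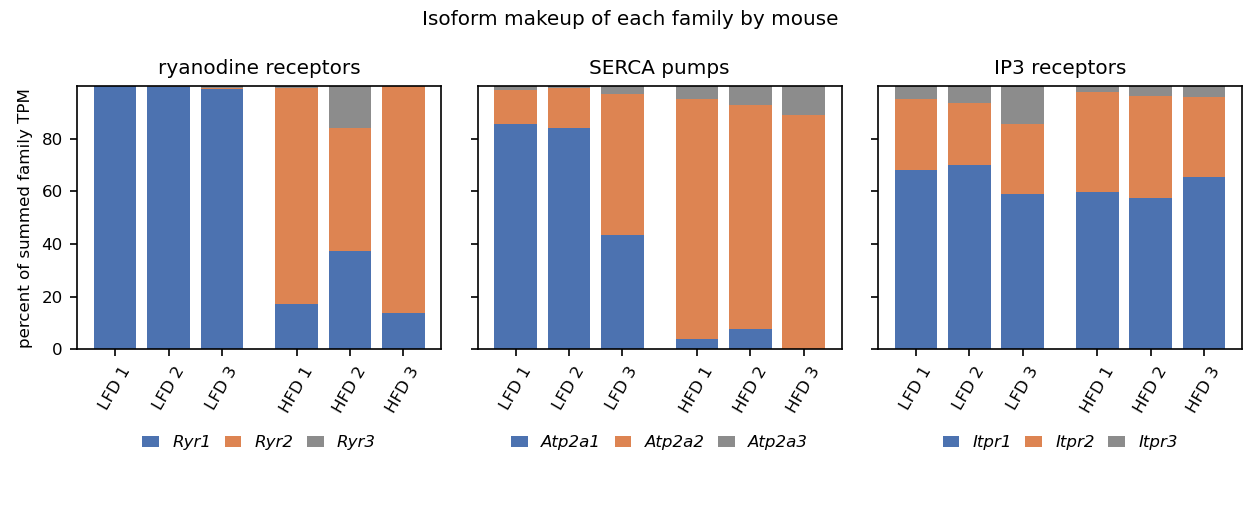
Stacked bars of each isoform as percent of the summed TPM of its family, 1 bar per mouse. *Ryr1* fills nearly the whole bar of all 3 LFD mice and at most 37.3% of an HFD bar, *Atp2a2* fills 85.2% to 91.1% of each HFD bar, and *Itpr1* leads the IP3 receptors in all 6 mice.

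The order of levels within a family was compared in the same mouse by an exact two-sided sign-flip permutation test of log2(TPM + 0.1) over the 6 mice, for 9 pairs with Benjamini-Hochberg adjustment. *Itpr1* was above *Itpr2* in 6 of 6 mice, by 1.06 ± 0.39 on the log2 scale (SD, n = 6), and *Itpr2* was above *Itpr3* in 6 of 6, by 2.56 ± 1.12. *Atp2a2* was above *Atp2a3* in 6 of 6 mice, by 3.73 ± 0.55. *Ryr1* was above *Ryr3* in 6 of 6, by 4.14 ± 3.30, a mean of 7.05 in LFD and 1.22 in HFD mice, where the order rests on 27 to 187 reads of *Ryr1* and 0 to 8 reads of *Ryr3* and was not settled at this depth. These pairs and *Itpr1* over *Itpr3* had an exact permutation p of 0.03125, the smallest that 6 mice can give, and an adjusted p of 0.05625, so that no pair passed 0.05 after adjustment.

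The other pairs changed order between mice. *Ryr1* was above *Ryr2* in 3 of 3 LFD mice, by 7.25 ± 1.497 on the log2 scale (SD, n = 3), and below it in 3 of 3 HFD mice, by a mean log2 ratio of -1.33 ± 0.90 (SD, n = 3). In HFD mice 2 and 3 the TPM intervals of *Ryr1* and *Ryr2* overlapped, so the order in those mice was not settled. *Atp2a1* was above *Atp2a2* in 2 of 3 LFD mice and in 0 of 3 HFD mice. *Ryr2* and *Ryr3* could not be ordered in LFD mice, where both were near 0, and *Atp2a1* and *Atp2a3* could not be ordered in HFD mice, where *Atp2a1* was above in 1 of 3.

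Mean transcript length, weighted by the abundance of the transcripts of a gene, is a measure that the choice of genes did not use. With 3 mice against 3 an exact test cannot go below p = 0.10, so lengths are given as values. The share of all genes whose lengths do not overlap between the diets was not computed, so lengths without overlap are not read as a diet difference. *Itpr1* had a mean length of 4064, 3825 and 4201 bases in LFD mice 1, 2 and 3 and of 4530, 4325 and 4316 bases in HFD mice 1, 2 and 3. All HFD mice were longer, and a longer mean length lowers TPM at a given count. *Atp2a1* had 3122, 3134 and 3096 bases in LFD mice and 3281.5, 3309 and 3477 bases in HFD mice, again without overlap. The HFD lengths of *Atp2a1* rest on 185, 457 and 13 reads, and *Rabep2* overlaps this gene. *Ryr1*, *Atp2a2*, *Atp2a3* and *Itpr2* overlapped in length, and *Ryr2*, *Itpr3* and *Sln* had 1 length in all mice, 16813, 8990 and 515 bases.

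**Figure D5:**
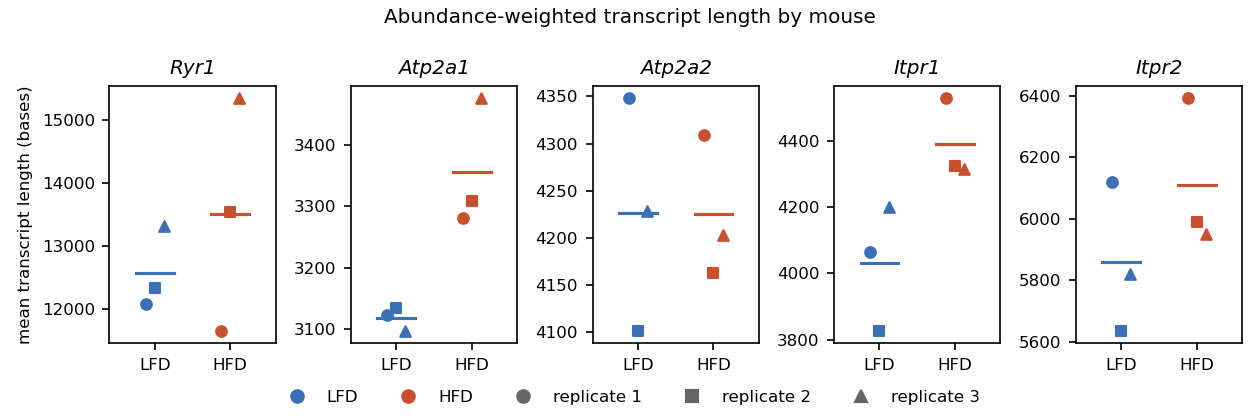
Abundance-weighted mean transcript length in bases for 5 genes, 1 point per mouse with a line at the mean of each diet (LFD blue, HFD red); the vertical axes do not start at 0. *Itpr1* and *Atp2a1* are longer in all 3 HFD mice, and the diets overlap for *Ryr1*, *Atp2a2* and *Itpr2*.

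Other genes of store calcium handling were read from 9 lists of 101 genes, of which 89 were tested. edgeR called 0 of the 89, and DESeq2 called 17 lower and 0 higher, beside 1.03% and 0.356% of the genes it tested. The log2 fold change was below 0 for 53 and above 0 for 36, with a median of -0.17, and 20 genes were lower and 4 higher in every HFD mouse, which is 22.5% and 4.49% of the 89 beside 9.23% and 6.72% of all tested genes. Of the 20 lower genes, 8 are in the triad and voltage sensor list. The 20 muscle markers moved with them, from 2345 to 16078 TPM in LFD mice to 35.0 to 413 TPM in HFD mice, and their part in these differences was not tested.

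In the triad and voltage sensor list, 8 of 10 tested genes were lower in every HFD mouse, beside 9.23% of all tested genes. DESeq2 called 8 of the list lower, beside 1.03% of the genes it tested. *Cacna1s*, the voltage sensor that opens RYR1, had 16.5, 43.7 and 5.61 TPM in LFD mice 1, 2 and 3 and 0.16, 0.39 and 0.17 TPM in HFD mice 1, 2 and 3, with a log2 fold change of -6.48 (SE 1.11). *Jsrp1*, a protein of the junctional membrane, had a log2 fold change of -5.84 (SE 0.91). Among ryanodine receptor partners, 5 of 12 were lower in every HFD mouse, beside the same 9.23%. *Trdn*, which anchors calsequestrin to RYR1, had 11.9, 35.9 and 5.19 TPM in LFD and 0.14, 0.51 and 0.03 TPM in HFD mice. *Camk2a*, a kinase that acts on ryanodine receptors, had a log2 fold change of -3.70 (SE 0.77).

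In the list of store buffers, 2 of 10 were lower in every HFD mouse and 1 was higher, beside 9.23% and 6.72% of all tested genes. *Casq1*, the calcium buffer of the muscle store, had 48.0, 130 and 14.7 TPM in LFD mice and 1.09, 1.43 and 0.35 TPM in HFD mice, and *Hrc*, another calcium-binding protein of the lumen, had a log2 fold change of -5.64 (SE 1.19). Of the 5 tested genes listed as SERCA regulators, 0 were lower and 1 was higher in every HFD mouse, beside the same shares. DESeq2 called 1 lower, beside 1.03% of the genes it tested. *Pln*, which encodes phospholamban, the inhibitor of SERCA2, overlapped at 0.82, 4.19 and 1.21 TPM in LFD and 0.40, 1.73 and 1.34 TPM in HFD mice. *Thbs4*, a thrombospondin, had 1.12, 29.2 and 24.7 TPM in LFD and 0.47, 1.22 and 1.96 TPM in HFD mice, with LFD mouse 1 among the HFD mice. Its log2 fold change of -3.55 (SE 0.94) was the largest of this list in size, followed by *Pln* at -0.65. No action of *Thbs4* on SERCA is read from its place on the list.

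The genes that supply IP3 were mostly close to each other in the diets, with a median of -0.30. Of these, 2 of 14 were lower and 1 higher in every HFD mouse, beside 9.23% and 6.72% of all tested genes. In lists this short, counts near those shares are not read as a result. *Adra1a*, an adrenergic receptor that signals through phospholipase C, had 9.51, 3.75 and 1.54 TPM in LFD and 14.7, 22.4 and 11.99 TPM in HFD mice. Its TPM values did not overlap, but its log2 CPM did, and the log2 fold change was 1.65 (SE 0.82). *Plcd4*, a phospholipase C, had a log2 fold change of -1.37 (SE 0.49). Of the 11 tested IP3 receptor partners, 1 was lower and 1 higher in every HFD mouse, again beside 9.23% and 6.72%. *Homer2*, a scaffold that binds IP3 and ryanodine receptors, had 2.13, 4.43 and 2.00 TPM in LFD and 0.37, 0.18 and 0.27 TPM in HFD mice, and *Ahcyl2*, a relative of the IP3 receptor binding protein IRBIT, overlapped with a log2 fold change of -1.04 (SE 0.54).

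Store-operated entry and mitochondrial uptake had no gene apart in either direction, among 9 and 11 tested, beside 9.23% lower and 6.72% higher of all tested genes. The channel gene *Orai3* had a log2 fold change of 0.40 (SE 0.22), and the mitochondrial genes *Letm1* and *Hspa9* had 1.01 (SE 0.74) and 0.69 (SE 0.70). Among 7 other pumps and exchangers, 2 were lower in every HFD mouse, beside the same 9.23%. *Atp2b4*, a calcium pump of the surface membrane, had 36.0, 56.6 and 55.0 TPM in LFD and 13.5, 15.6 and 19.6 TPM in HFD mice, with a log2 fold change of -1.48 (SE 0.25), and *Slc8a3*, a sodium-calcium exchanger, had -4.01 (SE 0.92).

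Genes with a pattern most like that of a member were ranked by Pearson's r of log2 CPM over the 6 mice, among 17668 genes. The 6 points come from 2 diets that lie apart for most of these members, and the values of a mouse share 1 library, so r is a measure of likeness without a p-value. For *Ryr1* the first 5 were *Mybpc2*, *Tnni2*, *Alpk3*, *Klhl31* and *Pygm* (r from 0.9981 to 0.9997), and for *Atp2a1* they were *Tnnt3*, *Tnnc2*, *Pvalb*, *Ckm* and *Xirp2* (0.9958 to 0.9987). Several of these are contractile or metabolic genes of muscle fibres, and *Tnni2*, *Pygm*, *Tnnt3*, *Tnnc2*, *Pvalb* and *Ckm* are on the muscle marker list. For *Ryr2* the first 5 were *Chrnb2*, *Itpr1*, *BC043934*, *Tsga10* and *Mamld1* (0.988 to 0.993), so that another member, *Itpr1*, ranked second at 0.990. *Sln* was most like *Lrrn1*, *Mfsd4*, *Zfyve1*, *Acsl6* and *Gas6* (0.990 to 0.997), none of which is on the muscle marker list. An r above 0.95 was reached by 280 genes for *Ryr1*, 207 for *Atp2a1*, 184 for *Sln*, 34 for *Ryr2* and 9 for *Atp2a2*.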

How the data were processed

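RNA of BAT from 3 HFD-fed and 3 LFD-fed mice had been sequenced as single reads of 75 bases. Per the submitters' processing notes, the authors used Trimmomatic 0.36, RSEM 1.3.0 and GRCm38.p4, and the study's methods name an Ensembl annotation. The authors deposited expected counts, which RSEM estimates per gene and which are not normalized, and TPM, which are scaled for length and depth. Mice were grouped by their diet labels, and each sample is a separate mouse.

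Expected counts were rounded and fitted in R 4.3.3 with edgeR 4.0.16 (quasi-likelihood test, TMM, low-count filter, no covariates). A gene was called where its Benjamini-Hochberg adjusted p was below 0.01 and its log2 fold change was beyond 1.5 in size. The script was tested on simulated data, with recovery of changed genes required only at a dispersion below the common dispersion of these data, 0.201. That test does not show how many changed genes edgeR would find here. DESeq2 1.42.0, other normalizations, filters and pseudocounts, and leaving out each mouse were the alternatives. Log2 CPM used a prior count of 2, and isoform pairs used SciPy 1.17.1. The edgeR fold changes used the default prior count of that fit, a separate setting. Depth was 17156991 to 21603487 counts per mouse, so a gene with few reads carries counting error beside the spread between mice.

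Same-numbered HFD and LFD mice deviated together from their diet means (r 0.229 to 0.522 over genes, each above 0.1), so the number was also fitted as a block; the labels do not say what the number stands for. The members and gene lists were chosen with earlier results of these data known. All 10 members were named, with up to 2 genes of each list that had the largest absolute log2 fold change, the 5 genes most like a member, and markers beside a result. Some genes that this rule names are not reported here. Summed marker levels that overlapped between the diets and are not described further were those of macrophages (1864 to 3921 TPM in HFD, 594 to 4374 in LFD), B cells (2.10 to 5.12, 0.62 to 4.31), platelets (158 to 481, 61.8 to 486), smooth muscle and mural cells (112 to 266, 118 to 283) and Schwann cells (1.14 to 11.7, 4.75 to 13.4).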

Additional observations from a re-analysis of the deposited data

How the results depend on the processing

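Across 255 alternative values, 223 kept their direction and their side of the threshold or moved by less than the spread between mice of a diet. With a mouse left out, the exact sign-flip permutation test of isoform pairs runs over 5 mice and cannot pass 0.05. The isoform pair values of those settings are among the 223, and they speak only to the direction and size of the level ratios. DESeq2 called 306 genes lower and 106 higher where edgeR called 0, and it moved *Ryr1* (log2 fold change -5.95), *Ryr2* (4.97), *Atp2a1* (-6.30), *Itpr2* (1.52) and *Sln* (-8.09) past the threshold at nearly the same fold; the cause was not tested. As mean differences without a test, log2(TPM + 0.1) gave 2.897 for *Ryr2*, 0.61 for *Itpr1* and -6.09 for *Sln*, and log2(TPM + 1) gave -4.02 for *Ryr1*, 0.90 for *Ryr2*, 0.60 for *Itpr1*, 1.13 for *Itpr2* and -3.32 for *Sln*. A pseudocount shrinks the differences of low genes by construction, and for *Itpr1* and *Itpr2* the cause was not tested. Leaving out LFD replicate 3 reversed *Itpr3*, to 0.10. Within 1 diet, 4 mean log2 level ratios reversed against those over all mice: *Ryr1* over *Ryr2* (-1.33 in HFD), *Atp2a1* over *Atp2a3* (-1.68 in HFD), *Atp2a1* over *Atp2a2* (1.62 in LFD) and *Ryr2* over *Ryr3* (-0.21 in LFD). Others moved by more than the spread in that diet. In LFD mice these were *Ryr1* over *Ryr2* (7.25), *Ryr1* over *Ryr3* (7.05), *Atp2a1* over *Atp2a3* (5.49), *Itpr1* over *Itpr2* (1.34) and *Itpr2* over *Itpr3* (1.70), and in HFD mice *Ryr1* over *Ryr3* (1.22), *Ryr2* over *Ryr3* (2.56), *Atp2a1* over *Atp2a2* (-5.27), *Itpr1* over *Itpr3* (4.19) and *Itpr2* over *Itpr3* (3.42). When single mice were left out, the log2 fold change ranged from -6.91 to -5.39 for *Ryr1*, 4.46 to 5.27 for *Ryr2*, -7.27 to -5.73 for *Atp2a1*, -9.56 to -6.10 for *Sln*, 0.87 to 1.08 for *Itpr1*, 1.38 to 1.75 for *Itpr2* and -0.62 to 0.10 for *Itpr3*. The fit with the replicate block gave -5.90 (SE 0.33) for *Ryr1*, 4.87 (SE 0.27) for *Ryr2*, -6.77 (SE 0.52) for *Atp2a1* and -7.79 (SE 0.57) for *Sln*. Without the block these SEs were larger, at 1.13, 0.59, 1.51 and 1.44. The block changed no call, but the smallest edgeR adjusted p over all genes was then 0.0102, just above the threshold. At an edgeR adjusted p under 0.05 it gave 155 genes lower and 29 higher, against 0 in each direction without it. Depth limits *Ryr3* and *Sln*, with at most 24 and 242 reads in a mouse.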
